A study of Homo sapiens with 15 samples.

Results

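All peaks that overlap the short arm of chromosome 9 between 19 and 34 Mb (hg19 chromosome 9) were taken from 15 lists of nuclease-accessible chromatin in K562 cells, and the positions of MTAP, CDKN2A and CDKN2B were marked among them. Merged over the lists, these peaks formed 154 regions of 120992 on the autosomes and X, and a list held between 78 and 135 of them, with a median of 96. No list had a peak at MTAP, CDKN2A or CDKN2B. The 3 genes lay in a stretch of 5.96 Mb without a peak in any list, which was the 8th longest of 120955 such stretches on the autosomes and X.

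K562 is an established erythroleukemia cell line, and every library came from it. The cells carried a lentivirally delivered, catalytically dead Cas9 (dCas9), alone or fused to the KRAB repressor domain, and transduced cells were selected with puromycin. The 5 groups of 3 libraries were made of dCas9-KRAB cells without a guide RNA (gRNA) and of cells that expressed either dCas9 or dCas9-KRAB together with the gRNA Cr4 or the gRNA Cr10. Both gRNAs were aimed at HS2, an enhancer of the beta-globin genes on another chromosome, so that the comparisons below concern a region that was not the target. All groups carried a dCas9 protein and came from selected cells, no group had dCas9 without a gRNA, and untransduced cells were not among these libraries. One annotation field names a gRNA target also where no gRNA was given, and the groups therefore follow the titles and the design text. Transduction was in triplicate per the design text. Whether the numbered libraries stem from separate cultures throughout is not stated, so that p-values measure the spread between these libraries, which may be technical.

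CDKN2A encodes 2 unrelated proteins from alternative first exons: the inhibitor p16-INK4a, which holds the cyclin-dependent kinases of the G1 phase inactive, and ARF, which binds MDM2 and thereby stabilizes p53. CDKN2B next to it encodes the related inhibitor p15-INK4b, and MTAP encodes methylthioadenosine phosphorylase, an enzyme of the methionine salvage pathway. The 3 genes are often lost together in tumours, and K562 is known to lack CDKN2A. The peak lists hold no measure of DNA copies. Missing DNA and DNA that is present but closed therefore cannot be told apart from the absence of peaks alone.

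The promoters of the 3 genes are shown because promoters rich in CpG are commonly open, and that of C9orf72 is shown beside them as a promoter beyond the gap with a peak in all 15 lists and as many CG steps as that of CDKN2B. The sequences are those of RefSeq on GRCh38.p14, not on hg19, and run from 250 bases before to 50 bases after a transcript start. Capitals mark each CG, which reads the same on both strands. MTAP is on the plus strand at chr9:21802386-21802685. CDKN2A has an upstream start on the minus strand at chr9:21995275-21995574 and a downstream start at chr9:21974808-21975107. CDKN2B is on the minus strand at chr9:22009256-22009555, and the C9orf72 start shown is on the minus strand at chr9:27573432-27573731.
MTAP: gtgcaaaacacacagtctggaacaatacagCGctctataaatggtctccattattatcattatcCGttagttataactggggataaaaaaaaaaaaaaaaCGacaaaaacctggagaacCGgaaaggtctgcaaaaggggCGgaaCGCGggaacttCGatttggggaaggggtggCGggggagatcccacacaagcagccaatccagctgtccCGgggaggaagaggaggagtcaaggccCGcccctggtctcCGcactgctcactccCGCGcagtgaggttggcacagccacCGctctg
CDKN2A upstream start: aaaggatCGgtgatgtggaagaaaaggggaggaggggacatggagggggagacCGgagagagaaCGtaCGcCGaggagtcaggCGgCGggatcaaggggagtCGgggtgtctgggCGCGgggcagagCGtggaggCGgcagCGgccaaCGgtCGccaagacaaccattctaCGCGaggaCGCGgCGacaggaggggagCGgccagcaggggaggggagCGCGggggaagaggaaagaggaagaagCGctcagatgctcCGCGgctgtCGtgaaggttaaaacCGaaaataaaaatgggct
CDKN2A downstream start: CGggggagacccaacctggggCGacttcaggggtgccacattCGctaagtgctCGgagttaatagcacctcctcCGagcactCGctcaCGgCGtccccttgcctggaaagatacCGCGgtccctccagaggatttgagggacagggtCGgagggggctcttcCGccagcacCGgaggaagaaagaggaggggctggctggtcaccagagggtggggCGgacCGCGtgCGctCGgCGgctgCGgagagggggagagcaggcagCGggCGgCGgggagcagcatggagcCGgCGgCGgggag
CDKN2B: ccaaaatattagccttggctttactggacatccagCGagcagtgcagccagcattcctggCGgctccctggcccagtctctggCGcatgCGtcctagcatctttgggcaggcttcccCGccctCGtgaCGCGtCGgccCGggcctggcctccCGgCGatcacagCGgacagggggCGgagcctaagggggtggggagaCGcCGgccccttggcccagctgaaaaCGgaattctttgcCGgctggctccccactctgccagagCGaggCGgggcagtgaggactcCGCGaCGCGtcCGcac
C9orf72: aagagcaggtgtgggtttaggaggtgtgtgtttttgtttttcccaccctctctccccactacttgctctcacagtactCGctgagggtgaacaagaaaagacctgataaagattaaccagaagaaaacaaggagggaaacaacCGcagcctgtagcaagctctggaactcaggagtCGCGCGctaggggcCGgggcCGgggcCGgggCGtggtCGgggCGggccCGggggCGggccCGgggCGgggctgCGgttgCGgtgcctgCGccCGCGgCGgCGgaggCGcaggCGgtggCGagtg

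These windows of 300 bases hold 15 CG steps at MTAP, 28 and 26 at the CDKN2A starts, 25 at CDKN2B and 25 at the C9orf72 start. Another C9orf72 start in RefSeq, not shown, holds 18, so that the match with CDKN2B is one of the start shown only. Over all 35116 promoters of the RefSeq table the median was 14, and 48.9% held at least 15. Among the listed genes of the window that are placed and have a promoter entry, 20 of 22 outside the 3 longest stretches held at least 15 CG steps. Inside the stretches, 10 of 13 genes did, MTAP, CDKN2A and CDKN2B among them. The number of 15, which is the count at MTAP, was chosen after the lists had been seen. The stretches were drawn from the absence of peaks, so that these counts describe the sequences and say nothing of how CG steps relate to peaks.

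The stretch with the 3 genes ran from 20692896 to 26656376 on chromosome 9 when all 15 lists were pooled. CDKN2A lay 1.28 Mb from its left border and 4.68 Mb from its right border. Of the listed genes, 11 start inside it: HACD4, IFNB1, KLHL9, IFNE, MTAP, CDKN2A, CDKN2B, the antisense RNA gene CDKN2B-AS1, DMRTA1, ELAVL2 and TUSC1. In RefSeq order, 25 protein-coding genes lie between FOCAD and CAAP1, the genes at its flanks, and 16 of them are type I interferon genes, which encode secreted antiviral cytokines. None of the 11 listed starts had a peak within 2 kb in any list. A list holds only what passed the authors' threshold, so that a weak signal below it would not be seen here.

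The length of this stretch was nearly the same from library to library. Taken in each list alone it measured 6.20 or 6.21 Mb in 14 libraries and 5.97 Mb in replicate 2 of dCas9 with Cr4, with a median of 6.21 Mb. On the left it ended at 1 of 2 neighbouring regions. In 9 lists the last peak ended between 20684417 and 20684886, and in 6 lists a further peak followed that ended between 20692690 and 20692895. On the right, the first peak lay at CAAP1 in 14 lists, beginning between 26892234 and 26892305. Replicate 2 of dCas9 with Cr4 alone had an earlier peak, at 26656377.

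**Figure D1:**
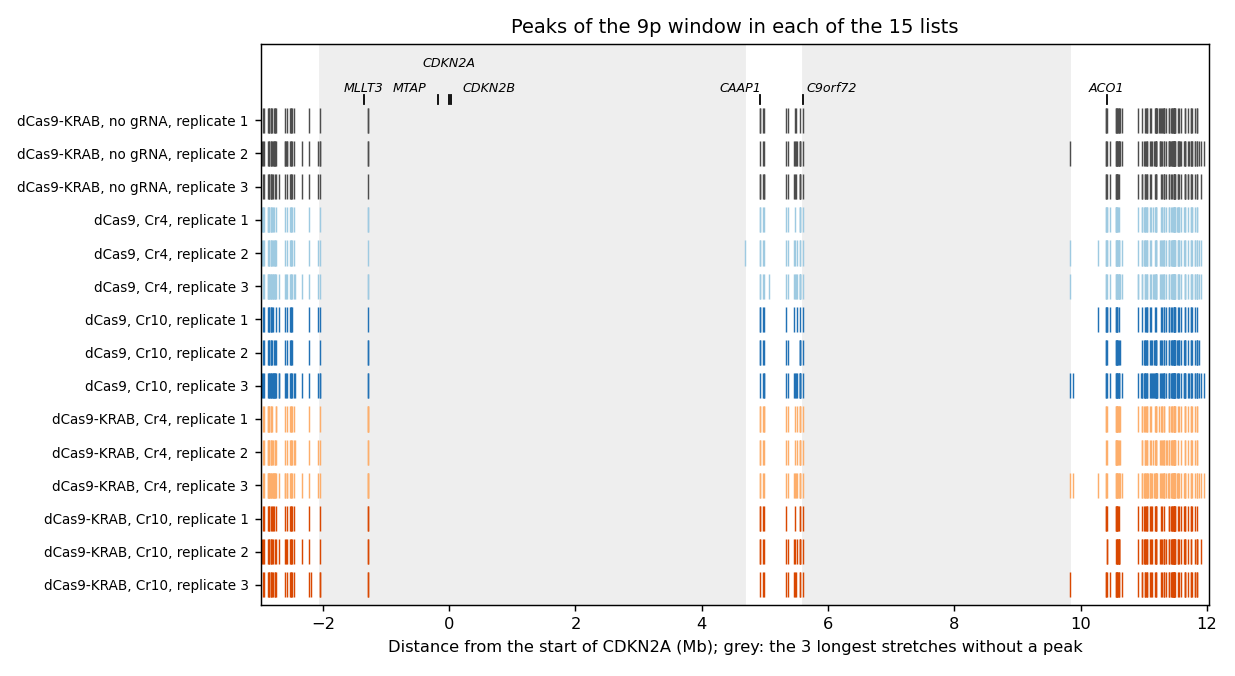
Peaks of the window in each list (1 row for each library, coloured by group), by distance in Mb from the start of CDKN2A, with the 3 longest stretches without a peak in grey and gene starts marked above. All 15 rows are empty at MTAP, CDKN2A and CDKN2B, and the gap around them ends at CAAP1 on the right in 14 of 15 rows, while the second gap ends at different peaks in different rows. The 6 rows in which the second gap is shortest belong to the 6 longest lists.

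The regions at the pooled borders were weak, while those just beyond them were strong. The left border region (20692491 to 20692895) had a peak in 6 lists, with 16 to 25 fragments at the summit as implied by the fold and p columns, and in 0 libraries was it among the 53098 strongest peaks, the length of the shortest list. The right border region (26656377 to 26656579) had a peak in 1 list, with an implied pileup of 21 fragments. On the scale of rank percentiles in lists of equal length, where a library's top peak has 100 and a missing peak has 0, that peak stood at 12.6.

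The nearest region on the left with a peak in all lists (20683918 to 20684886) lies near or within FOCAD, a gene for a protein of focal adhesions that is not placed exactly here. On GRCh38.p14, RefSeq has a FOCAD promoter at 20684009 to 20684308, whose position on hg19 was not checked. For the region itself, the values follow. The region's percentile ran from 87.9 to 97.9 with a median of 96.8, and its implied pileup ran from 68 to 170 fragments. It was among the 10 regions of the window with the highest mean percentile. An accessible site at a percentile of at least 87.9 was therefore present 1290.1 kb from CDKN2A in every library.

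The nearest such region on the right (26892234 to 26893004) is at the start of CAAP1, a gene for a regulator of apoptosis. Its percentile was 77.1, 96.4 and 71.8 without a gRNA, 65.9, 88.6 and 92.4 in dCas9 with Cr4, and 64.1, 79.5 and 93.4 in dCas9 with Cr10. It was 93.0, 80.3 and 83.9 with dCas9-KRAB under Cr4 and 74.7, 83.3 and 88.2 in dCas9-KRAB with Cr10. The 5 groups overlapped, and the spread within a group was wide.

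A second stretch, of 4.23 Mb, followed from 27574217 to 31807977 and was the 18th longest of all. It begins at C9orf72, whose product takes part in membrane traffic and autophagy, and it holds the start of LINGO2, a gene for a neuronal membrane protein. RefSeq order places 2 protein-coding genes between C9orf72 and ACO1, LINGO2 and LOC124902135, against the 25 of the stretch with CDKN2A. The C9orf72 region (27573139 to 27574216) had a peak in all lists, at percentiles from 65.1 to 91.2 with a median of 83.3. The right border region (31807978 to 31808230) had a peak in 6 lists, with implied pileups of 20 to 32 fragments. In single lists the stretch measured 4.23 to 4.81 Mb, with a median of 4.80 Mb. The 6 lists with a peak at the right border region were the 6 longest, at 70021 to 94677 peaks. Every other list held at most 68399 peaks. Whether the length of a list sets this border was not tested.

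The third stretch, of 758 kb from 19926356 to 20683917, was the 352nd longest of all and lies between 2 regions with a peak in all lists. It holds the start of MLLT3, a gene for a subunit of the super elongation complex that is known for its role in blood stem cells. The left border region (19926007 to 19926355) stood at percentiles from 36.4 to 71.5 with a median of 49.1, and the right border is the region near FOCAD. These 3 stretches summed to 10.95 Mb, or 73.0% of the 15 Mb. The next longest, of 403 kb, was far shorter.

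**Figure D2:**
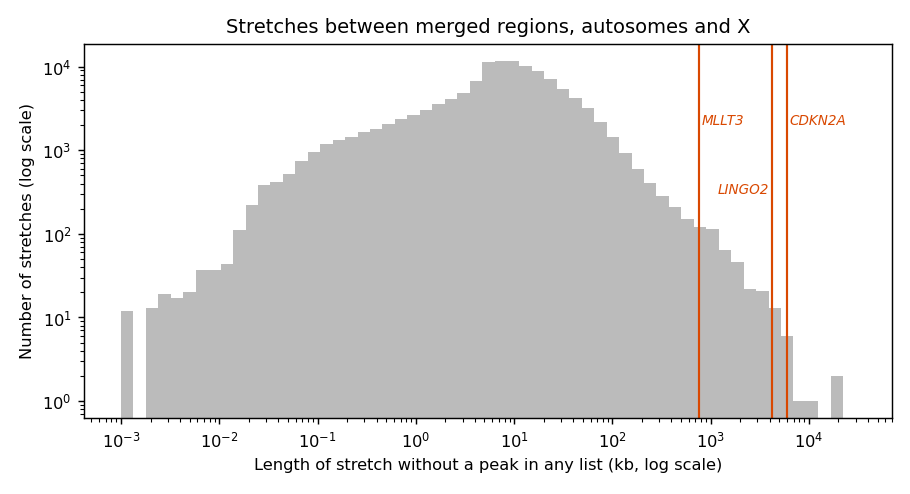
Lengths of all stretches without a peak in any list on the autosomes and X, as a histogram with both axes on a log scale; lines mark the 3 longest stretches of the window, named by a gene that starts in each. The stretch with CDKN2A, at 5.96 Mb, is 8th in length, whereas the median stretch measured 7.87 kb.

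Stretches of this length were rare. Of all stretches, 251 or 0.208% measured at least 1 Mb, and 7 were longer than the stretch with CDKN2A. The 3 longest were on chromosome 1 (21.2 Mb), chromosome 9 (18.3 Mb) and chromosome 16 (11.7 Mb), and the other 4 were on X, 13, 4 and again 13, at 6.05 to 7.37 Mb. Assembly gaps were not taken out, since no list of them was used, and how many of these stretches span one was not tested. Within the window, the 155 stretches had a median of 10.4 kb.

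The density of peaks was low over the window as a whole, and most of that came from its 3 long stretches. The lists held 6.88 ± 1.14 peaks per Mb (SD, n = 15 libraries) in the window, 24.3 ± 4.21 on the rest of the autosomes and X, and 21.0 ± 3.68 on the rest of chromosome 9. The ratio of the window to the rest was 0.284 on average and ran from 0.266 to 0.308. Against the rest of chromosome 9 it was 0.328. Since the window was drawn around a gap already known, these ratios are a description and carry no test. Of 192 tiles of the same length, chosen after the data were seen, 15 or 7.81% held fewer merged regions than the 154 of the window, and the median tile held 487.5.

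Outside stretches of 750 kb or more, a limit chosen after the data were seen and just under the length of the third stretch, the densities lay closer together. The density was 25.5 ± 4.22 peaks per Mb in the window and 30.7 ± 5.33 elsewhere (SD, n = 15 libraries), with a mean ratio of 0.831 that ran from 0.778 to 0.903. The segment between the 2 longest stretches was the sparsest. From the right border of the CDKN2A stretch to C9orf72, over 918 kb, the lists held 13.3 ± 2.34 peaks per Mb. Of this length, 236 kb left of CAAP1 held no peak in any list. The density from CAAP1 on is therefore higher, and neither it nor its order against the ends was computed. The left end, from 19 Mb to the first stretch, held 26.3 ± 5.07, and the right end, from the second stretch to 34 Mb, held 29.5 ± 4.94. In 15 of 15 libraries the segment of 918 kb had fewer peaks per Mb than either end. Its highest library, at 17.4, was below the lowest library of the left end, at 20.5, and of the right end, at 21.9. This separation of the ranges counts the 236 kb without a peak. Their left border is a peak in 1 list, and from CAAP1 on the ranges may overlap. These differences between segments are given without a test, because the segments were drawn from the peaks.

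**Figure D3:**
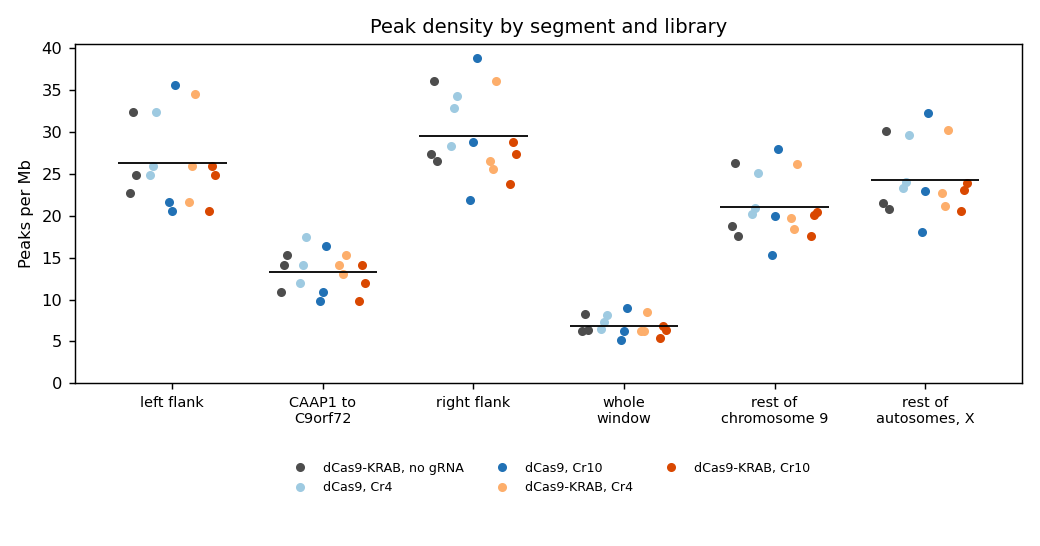
Peaks per Mb in each library (points) for 3 segments of the window outside its long stretches (left flank and right flank are its ends), the whole window, the rest of chromosome 9 and the rest of the autosomes and X; colours are groups and lines are means. The segment labelled CAAP1 to C9orf72 begins at the right border of the CDKN2A stretch, left of CAAP1. It lies at 9.81 to 17.4 peaks per Mb, under both ends of the window in every library.

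The share of the window's regions that were found in every library lay near the share over all regions. Of the 154 regions, 58 or 37.7% had a peak in all 15 lists, against 32.1% of all regions. A further 45 had one in 6 to 14 lists, 27 in 2 to 5 lists and 24 in 1 list, and the share found in 1 list was 15.6%, against 19.03% of all regions. The regions in all lists had a median percentile in the deposited lists of 76.6 in the window and 70.6 overall (medians over libraries). The ranges overlapped, at 60.6 to 86.0 in the window and 62.5 to 78.6 overall. Their median length was 642.5 bp in the window and 548 bp overall. By segment, 16 of 37 regions at the left end and 35 of 98 at the right end had a peak in all lists. From the right border of the CDKN2A stretch to C9orf72 it was 6 of 17. The remaining 2 regions lie near FOCAD, 1 of them in all lists.

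Most of the listed genes placed outside the long stretches had a peak at the start. Of 39 listed genes with a placed start, 26 start outside the 3 stretches, and 24 of these had a peak within 2 kb in all 15 lists. The exceptions were SLC24A2, a gene for a sodium, potassium and calcium exchanger of neurons, with a peak in 1 list, and TEK, the angiopoietin receptor gene of endothelial cells, with a peak in 0 lists. The list was chosen with earlier results known and the stretches were drawn from the peaks, and the share of all gene starts with a peak was not computed. Gene starts are recalled hg19 positions that were not checked against an hg19 annotation, apart from the positions of the 3 named genes. At most 1 start was placed for each gene, so that further starts, such as another that RefSeq lists for IFT74, were not searched. FOCAD was left unplaced, a decision made after the peaks had been seen, although other genes with several starts were placed.

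Of the 10 regions with the highest mean percentile, most lay at the start of a listed gene. NOL6, a gene for a nucleolar protein of ribosome assembly (33473612 to 33474291), had the highest mean percentile at 99.6 and ran from 99.1 to 99.9. SMU1, a gene for a splicing factor (33076500 to 33076942), ran from 96.6 to 99.8. ACO1, which encodes the cytosolic aconitase that doubles as an iron sensor (32384244 to 32385178), ran from 95.5 to 99.6 and is the first listed gene to the right of the second long stretch. At the left end, the region of HAUS6, a gene for a spindle protein (19102164 to 19103350), ran from 95.2 to 99.9. In each of these regions the libraries with the lowest values still ranked among the strongest peaks of their list. The other members of the 10 highest were ACER2, APTX, the start shared by BAG1 and CHMP5, the region near FOCAD and regions at 19154067 to 19154638 and at 26956128 to 26956721 without a placed start, with means from 93.9 to 95.8. For the last of these, RefSeq on GRCh38.p14 has an IFT74 promoter at 26956162 to 26956461. Its position on hg19 was not checked.

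The local background at the peaks was also low in the window. The fold and p columns together give the number of fragments at a peak's summit and the background number of fragments that the peak caller set against it, and 100% of peaks in each list could be solved for both. The median background at the window's peaks was 2.89 to 6.93 fragments over the libraries, against 4.24 to 9.96 on the rest of the autosomes and X. The ratio averaged 0.688 and ran from 0.626 to 0.734, below 1 in 15 of 15 libraries. These libraries come from 1 cell line, and the window was drawn around a gap already known. The ratio is therefore a description and carries no test. Against the rest of chromosome 9 the ratio averaged 0.664.

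The background followed the order of the segments by peak density. Its mean ratio to the rest was 0.544 from the right border of the CDKN2A stretch to C9orf72. It was 0.602 at the left end, 0.808 at the right end and 0.876 at the peaks near FOCAD. In most libraries the median of the first of these segments was the lowest background of the list, such as 2.24 fragments in replicate 1 of dCas9 with Cr10. Its ratio there is set by that lowest value. Between 19.1% and 39.8% of the window's peaks stood within 1% of the lowest background of their list, against 8.47% to 15.1% of peaks elsewhere. The median summit pileup was lower by less than the background, at 0.841 times the rest. Such values were not confined to the window: of 188 tiles of its length, 37 or 19.7% had a lower ratio, and the peaks of chromosomes 13 and X stood at 0.683 and 0.684 times the median of their list. Whether the window's background reflects DNA copies, the spacing of its peaks or another property was not tested.

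**Figure D4:**
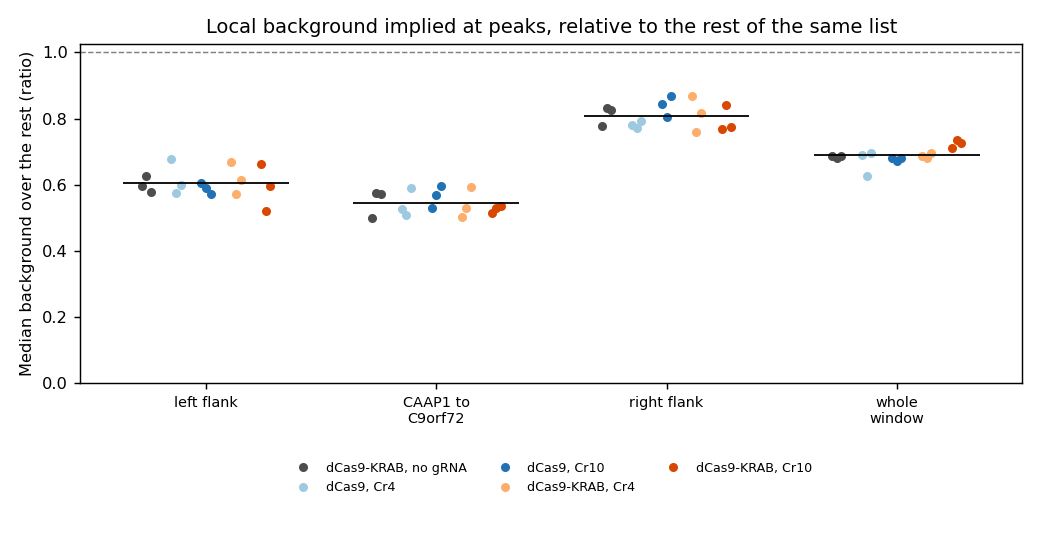
Implied local background at the peaks of the window and of 3 of its segments (left flank and right flank are the ends of the window), as a ratio to the rest of the autosomes and X of the same list; points are libraries, coloured by group, and lines are means. The window lies at 0.626 to 0.734 of the rest. The segment labelled CAAP1 to C9orf72 begins at the right border of the CDKN2A stretch and has the lowest mean, with libraries at 0.499 to 0.596. In most libraries its median is the lowest background of the list.

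By library, the ratio was 0.686, 0.681 and 0.687 without a gRNA, 0.689, 0.626 and 0.696 in dCas9 with Cr4, and 0.682, 0.672 and 0.680 in dCas9 with Cr10. It was 0.685, 0.680 and 0.696 with dCas9-KRAB under Cr4 and 0.711, 0.734 and 0.725 in dCas9-KRAB with Cr10. The 3 libraries of dCas9-KRAB with Cr10 thus stood above all others, a pattern seen only after the values were computed and not tested. At the right end of the window the same 3 libraries stood at 0.767, 0.842 and 0.773, within the range of the others. At the left end they stood at 0.663, 0.521 and 0.597, the second being the lowest of all libraries. From the right border of the CDKN2A stretch to C9orf72 they stood at 0.515, 0.529 and 0.536, also within the range of the others. Near FOCAD they stood at 0.746, 1.04 and 0.801, the first being the lowest of all. In no segment did these 3 libraries stand above all others.

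Whether dCas9-KRAB or the gRNAs were accompanied by a change in the window was asked first by the share of each list's peaks that fell into it. It was 0.147%, 0.140% and 0.157% without a gRNA, 0.143%, 0.156% and 0.142% in dCas9 with Cr4, and 0.147%, 0.140% and 0.143% in dCas9 with Cr10. It was 0.141%, 0.152% and 0.144% with dCas9-KRAB under Cr4 and 0.136%, 0.151% and 0.137% in dCas9-KRAB with Cr10. All 5 groups overlapped.

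None of the 5 comparisons of this share passed its test. The mean was 0.148 ± 0.00852% without a gRNA, 0.146 ± 0.00560% with dCas9-KRAB under Cr4 and 0.141 ± 0.00829% in dCas9-KRAB with Cr10 (SD, n = 3). The differences from no gRNA were −0.00267 percentage points with Cr4 (two-sided exact permutation p = 0.7) and −0.00710 with Cr10 (exact permutation p = 0.4). Against dCas9 with the same gRNA they were −0.00130 with Cr4 (exact permutation p = 0.8) and −0.00195 with Cr10 (exact permutation p = 0.7). The 6 dCas9-KRAB libraries that had a gRNA differed from the other 9 by −0.00271 (exact permutation p = 0.443, 5005 splits). Adjusted over the 5 comparisons each p was 0.8, and 3 libraries against 3 cannot go below 0.1. The KRAB difference with Cr10 less that with Cr4 was −0.000654 (exact permutation p = 0.935).

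**Figure D5:**
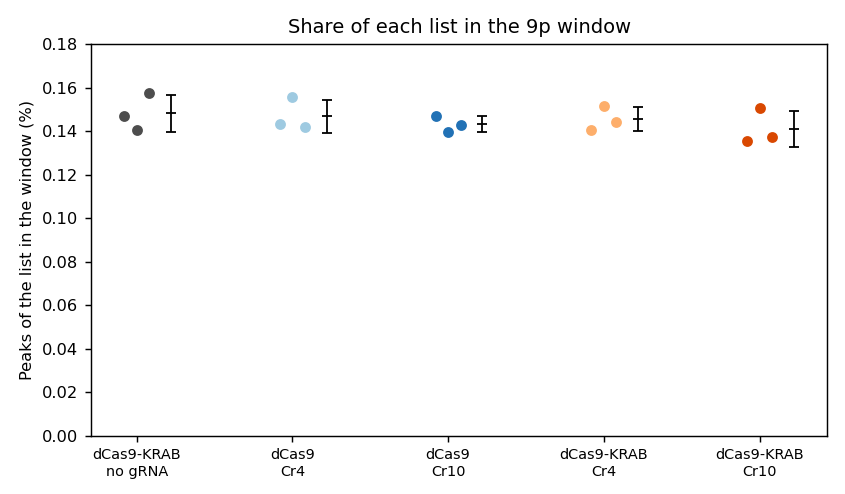
Share of each list's peaks that lie in the window, in percent, by group, with points for libraries and the mean ± SD of 3. The groups overlap, and all 15 libraries lie between 0.136% and 0.157%.

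Single regions of the window also gave no call. In lists of equal length, 103 regions of the window had a peak in at least 3 libraries and were tested by limma together with all 62855 such regions. At an adjusted p under 0.05, limma called 0 of the 103 in each of the 5 comparisons and in the interaction, and 0% of all regions. At an unadjusted p under 0.05 there were 4 of 103 for Cr4 under dCas9-KRAB against no gRNA (2.42% of all regions) and 3 for Cr10 under dCas9-KRAB against no gRNA (2.81%). The KRAB domain compared with plain dCas9 gave 0 with Cr4 (1.25%) and 6 with Cr10 (2.5%). The pooled comparison gave 3 (1.72%), and the interaction gave 2 (2.18%). None of these counts carries a call. Over all regions the shares, at 1.25% to 2.81%, lay below what a threshold of 0.05 gives without a difference. The test was therefore strict on these ranks, and a lack of calls does not show that regions were alike.

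The regions with the lowest limma p in each comparison are given by their values. They were picked for a low p, so that a lack of overlap between groups follows in part from that choice. It is no support for a difference, and the share of all regions without overlap was not computed. The start of PLIN2, which encodes a coat protein of lipid droplets (19127088 to 19127819), stood at percentiles of 48.1, 55.01 and 57.4 without a gRNA and 79.4, 63.9 and 75.6 in dCas9-KRAB with Cr10. These 2 groups did not overlap, at a difference of 19.5 points (SE 5.84, limma adjusted p = 1). In dCas9 with Cr10, without the KRAB domain, the same region stood at 74.8, 58.7 and 68.9, within the range of the dCas9-KRAB libraries at 2 of 3 values.

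MOB3B, a gene for a kinase activator of the MOB family, has a region at its start (27529332 to 27529997) that stood at 57.1, 47.7 and 62.0 in dCas9-KRAB with Cr10 and 17.9, 27.9 and 35.7 in dCas9 with Cr10. The groups did not overlap, and the difference of 28.4 points (SE 9.72, limma adjusted p = 1) did not pass. Without a gRNA this region stood at 43.1, 45.5 and 54.5, between the other 2 groups or within the higher one. With Cr4 it stood at 45.3, 20.4 and 20.6 in dCas9-KRAB and at 26.7, 36.6 and 40.7 in dCas9, so that these groups overlapped.

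A region without a listed start (19464651 to 19465449) stood at 69.5, 72.6 and 61.7 in dCas9-KRAB with Cr10 and 78.6, 79.5 and 80.5 in dCas9 with Cr10. The groups did not overlap, at −11.6 points (SE 3.63, limma adjusted p = 1). The start of NDUFB6, a gene for a subunit of respiratory complex I (32572705 to 32573429), stood at 83.1, 81.8 and 97.9 in dCas9-KRAB with Cr4 and 96.0, 95.8 and 95.3 without a gRNA. These groups overlapped, because replicate 3 with Cr4 was the highest of the 6, and the difference was −8.05 points (SE 3.18, limma adjusted p = 1). The pooled comparison gave −5.22 points at NDUFB6 and −6.04 at the region from 19464651 (limma adjusted p = 1.00 for each).

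The region near FOCAD at the edge of the CDKN2A stretch had one of the lowest p-values for dCas9-KRAB against plain dCas9 under Cr4, at 87.9, 93.3 and 96.8 against 97.2, 95.0 and 97.6. The difference was −3.92 points (SE 1.99, limma adjusted p = 1), and the groups overlapped. A region at 33239827 to 33240374 differed by −14.9 points between Cr4 under dCas9-KRAB and no gRNA, without overlap (SE 6.54, limma adjusted p = 1). The remaining regions with a low p were weak ones absent from most lists: in the lists of equal length 27462454 to 27462809 had a peak in 4 libraries and 19013227 to 19013504 in 3, and in the deposited lists these numbers were 6 and 5.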

How the data were processed

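Each of the 15 libraries came as 1 peak list on hg19. Reads were processed with CASAVA 1.3, BWA and bedtools, per the submitters' processing notes; which program called peaks, at what threshold and from how many fragments is not given in the sources used here, so that the depth is unknown beyond the list lengths of 53098 to 94677 peaks on the autosomes and X. The names of the peaks carry a MACS prefix. The score column was deposited by the authors and was not used for any result. The fold column, a ratio deposited by the authors, ranked the peaks within a list. The authors deposited the p-value and q-value columns as −log10 values.

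Overlaps of at least 1 bp merged peaks into regions, and stretches were measured between merged regions. Fold = (k + 1)/(λ + 1) and a Poisson p-value were solved for the summit pileup k and background λ, with a tolerance of 0.01 in −log10 p. Limma 3.58.1 (R 4.3.3) fitted rank percentiles of the 53098 strongest peaks over all 15 libraries and 5 groups, with a mean-variance trend and Benjamini-Hochberg adjustment over all regions. It was tested on simulated data. Shares were tested by exact permutation with Python 3.11.15, numpy 2.4.6 and scipy 1.17.1. Densities and background ratios are only described, since the window was drawn around a known gap. No 2 lists held identical peaks in the window.

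The members, the gene list and the tests were chosen with earlier results of these data known. Named are the 3 genes, the border regions of the 3 longest stretches, the nearest regions with a peak in all lists, the 10 regions with the highest mean percentile, the 2 with the lowest limma p in each comparison, and listed genes at or inside these. Listed genes matched RefSeq by symbol (40 of 40), and 36 had a promoter entry. By the correlation of their deviations, same-numbered libraries were paired (every pair over 0.1) only between no gRNA and dCas9-KRAB under Cr10 (0.137 to 0.241), and over all comparisons the pairs ran from −0.172 to 0.386. Alternatives were other thresholds, list lengths, overlaps and filters, the block, and leaving out each library.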

Additional observations from a re-analysis of the deposited data

Results flagged for a closer look

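In 10 sets of libraries (the 6 with dCas9-KRAB and a gRNA, or the other 9, for each of several values), a library was compared with the rest of its set by its gap to the nearest other library. For separate sets of normally distributed values, chance marks about 1 set in 20. That rate does not hold here, because the stretch lengths take few distinct values. The share and the density ratio also come from the same counts, so that the sets are not separate. Of the 10 sets, 2 were marked, both in the set of 9 and both by replicate 2 of dCas9 with Cr4. Its implied background in the window was 0.626 times the rest, while the others of the set lay between 0.672 and 0.696. Its stretch with CDKN2A measured 5.97 Mb, while the others lay between 6.20 and 6.21 Mb, because it alone had a peak at 26656377 to 26656579.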

How the results depend on the processing

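The stretch with CDKN2A, which is also the longest of the window, measured 6.20 Mb when only regions in at least 2 lists, or in at least 3 lists, were counted. Leaving out 1 library gave 5.96 to 6.20 Mb, the latter without replicate 2 of dCas9 with Cr4. The difference in share without 1 library ran from −0.00654 to 0.00189 percentage points for Cr4 under dCas9-KRAB against no gRNA, from −0.00436 to 0.00309 for the KRAB domain against plain dCas9 under Cr4, and from −0.00672 to 0.000807 under Cr10, so that these signs are not settled. With the replicate number as a block the share difference of dCas9-KRAB with Cr10 from no gRNA stayed at −0.00710 (exact permutation p = 0.5, adjusted 0.75), and limma called 0 window regions in each comparison; no call changed. Limma also called 0 window regions under each alternative measure, overlap and filter and without any 1 library. The density ratio to the rest of the autosomes and X was 0.325 in lists of equal length and 0.287 at −log10 q of at least 5, and the background ratio was 0.688 at that q and 0.700 over regions in all lists. The ratios outside long stretches and to the rest of chromosome 9 were not recomputed. The unknown sequencing depth limits every statement that a peak is absent.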
